A study of Mus musculus with 8 samples.

Results

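The miRNAs described here are the mature products of the miR-199 and miR-214 genes, which were followed through 3 groups of C3H10T1/2 cells, which are mouse mesenchymal cells able to take on cartilage, bone and fat fates. Members were chosen by name alone, as every mouse miRNA on the array called miR-199a, miR-199b or miR-214 with its arm given. This rule found 5 of 611 mouse miRNAs, namely miR-199a-5p, miR-199a-3p, miR-199b-5p, miR-214-3p and the weak arm miR-214-5p. Cells of the WT group were incubated for 48 h with 750 nM of wild type IhhN, the signalling fragment of Indian hedgehog, and cells of the MT group with the same dose of IhhN carrying the E95K substitution. The control group received no IhhN protein, although its labels repeat the 750 nM dose. No group carried any other agent or genetic change that the labels mention. Each group had 2 RNA samples (n = 2), and each WT sample was hybridized on 2 arrays, which made 8 1-colour arrays on 1 slide. Nothing in the sources used here says that the RNA samples came from separate cultures, so p-values measure the spread between these samples only, and C3H10T1/2 is 1 cell line.

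A miRNA is cut from a hairpin, and either arm of the hairpin (5p or 3p) can be kept as the mature strand. The mature strand finds its mRNA targets mainly through its seed, bases 2 to 8, and lowers their output. In the mouse, miR-199a and miR-214 are carried by Dnm3os, a long non-coding RNA made in developing skeletal mesenchyme and needed for normal skeletal growth, and the E-box factor TWIST1 is known to drive it. An arm of miR-199a is known to lower SMAD1 in C3H10T1/2 cells on their way to cartilage. miR-214-3p is known to lower ATF4 in osteoblasts, and in zebrafish miR-214 acts on the hedgehog pathway through Su(fu).

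The mature sequences are shown because the probes read them directly and because the 4 members with a sequence have different seeds. RefSeq on build GRCm38.p6 held 4 of the 5 members, all but miR-199b-5p, and capitals mark the seed. The likeness of miR-199b-5p to miR-199a-5p was thus not examined, nor whether the probes of either also read the other. The last sequence, miR-761, is shown because it has the seed of miR-214-3p.
mmu-miR-199a-5p: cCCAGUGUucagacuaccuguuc
mmu-miR-199a-3p: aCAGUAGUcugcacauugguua
mmu-miR-214-5p: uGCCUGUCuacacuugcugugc
mmu-miR-214-3p: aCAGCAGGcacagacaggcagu
mmu-miR-761: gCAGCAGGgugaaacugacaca
The arms of miR-199a and of miR-214 share no seed with each other. Mature miR-199b-3p has the same 22 bases as miR-199a-3p and has no probe of its own on the array. The miR-199a-3p probes therefore read the product of 3 hairpins together. miR-761 was on the array and was detected on 0 arrays.

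The hairpins show which members share a transcript. Mir199a-2 lies at chr1:162217814-162217923 and Mir214 at chr1:162223368-162223477, both on the plus strand and both inside Dnm3os (chr1:162217623-162225550), which itself lies within the dynamin gene Dnm3. There are 5444 bases between these hairpins. Mir199a-1, at chr9:21496495-21496564 on the minus strand, gives the same mature miR-199a arms and lies within Dnm2. Mir199b, the paralogue, lies at chr2:32318460-32318569 within Dnm1. In the hairpins below, capitals mark the mature arms.
Mir199a-2: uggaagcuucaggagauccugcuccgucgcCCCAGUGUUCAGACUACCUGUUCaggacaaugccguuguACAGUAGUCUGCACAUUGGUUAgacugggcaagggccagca
Mir214: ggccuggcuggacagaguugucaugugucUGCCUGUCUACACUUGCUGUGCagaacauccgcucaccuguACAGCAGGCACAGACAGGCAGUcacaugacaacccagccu
Mir199a-1: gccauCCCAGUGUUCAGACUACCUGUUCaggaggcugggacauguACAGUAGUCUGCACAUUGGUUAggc
The mature arms are identical letter for letter in Mir199a-1 and Mir199a-2, so the arrays cannot tell the Dnm3os copy from the Dnm2 copy. Of the members, only the miR-214 arms come from the Dnm3os locus alone in this annotation.

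The promoter of Dnm3os is shown because it lies upstream of the hairpins of miR-199a-2 and miR-214, and capitals mark matches to CANNTG, the E-box, read on both strands. It covers chr1:162217373-162217672 on the plus strand, and Mir199a-2 begins 191 bases after the start of the transcript.
Dnm3os promoter: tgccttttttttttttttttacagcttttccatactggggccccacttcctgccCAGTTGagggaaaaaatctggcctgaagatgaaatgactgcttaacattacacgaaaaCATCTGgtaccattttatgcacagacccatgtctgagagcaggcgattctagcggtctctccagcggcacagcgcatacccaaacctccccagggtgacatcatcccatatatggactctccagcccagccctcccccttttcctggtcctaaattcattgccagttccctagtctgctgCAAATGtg
This window held 3 E-box matches, and 17.6% of the 32851 promoters of the same length held 3 or more. It held 0 matches to CCACCCA, the core of the motif known for GLI factors, on either strand, and 9.3% of all promoters held at least 1. These are matches of letters within this window only, and no binding at this promoter was examined here.

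Detection differed between the arrays. The count of mouse miRNAs detected was 104, 117, 144 and 147 on the WT arrays, 106 and 143 on the MT arrays, and 150 and 146 on the control arrays, where a probe was detected if over 50% of its spots were well above background. No array detected 449 of the 611 miRNAs, and every array detected 103. Of miRNAs listed by cell type, 7 of 11 mesenchymal arms were detected on some array. For blood it was 0 of 7, for epithelium 0 of 10, for muscle 0 of 5 and for liver 0 of 1. The 7 were miR-100-5p, miR-125b-5p, miR-143-3p, miR-145-5p, miR-21-5p, miR-22-3p and miR-22-5p, not all of them particular to mesenchyme. The single neural arm detected of 6 was miR-128-3p. Of the members, miR-199a-5p, miR-199a-3p, miR-199b-5p and miR-214-3p were detected on all 8 arrays. miR-214-5p was detected on 6 of 8, and not on the first array of WT replicate 1 or on that of MT replicate 1. Its unscaled signal there was 29.1 and 26.0, and the SD of the negative control spots was 6.63 and 5.61. On the second array of WT replicate 1 it was detected at 22.3, where that SD was 3.76.

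Signals were divided by each array's 75th percentile over the 174 probes detected on all arrays, and all levels and differences in the next paragraphs are on this scaled signal or its log2. A probe's brightness depends on its sequence, so levels are compared between groups and not between miRNAs.

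miR-214-3p had the widest separation between the groups of the 5 members. Its scaled signal was 719.6 and 638.2 in the control samples, 994.6 and 910.5 in the WT samples, and 1207.1 and 1125.6 in the MT samples. The order was control, WT, MT with no overlap between any neighbours, and the group means were 9.40 ± 0.12, 9.89 ± 0.09 and 10.19 ± 0.07 on the log2 scale (SD, n = 2). Samples that do not overlap were common among all 142 miRNAs tested. WT lay wholly above control for 39.4% of them, MT above control for 40.8%, and WT below MT for 17.6%.

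miR-199a-5p followed the same order. It read 554.8 and 522.7 in the control samples, 760.0 and 652.1 in the WT samples, and 849.5 and 768.2 in the MT samples. WT and MT lay close, since the higher WT sample was just below the lower MT sample. WT samples lay wholly above control for 39.4% of the 142 miRNAs tested, MT above control for 40.8% and WT below MT for 17.6%. The log2 means were 9.07 ± 0.06 in the control group, 9.46 ± 0.16 in the WT group and 9.66 ± 0.10 in the MT group (SD, n = 2).

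miR-199b-5p, the arm made from the paralogue within Dnm1 and known to lower the Notch target HES1, read 508.6 and 459.9 in the control samples, 645.3 and 591.7 in the WT samples, and 661.8 and 620.5 in the MT samples. Both IhhN groups lay above the control samples, while WT and MT overlapped. Of all 142 miRNAs tested, 39.4% had WT samples and 40.8% had MT samples wholly above those of the control group. The log2 means were 8.92 ± 0.10, 9.27 ± 0.09 and 9.32 ± 0.07 in the same order (SD, n = 2).

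miR-199a-3p ran the other way. It read 1628.6 and 1759.5 in the control samples, 1337.4 and 1581.5 in the WT samples, and 1454.8 and 1462.9 in the MT samples. Every sample with IhhN lay below both control samples, and the WT samples lay on either side of the MT samples. Of all 142 miRNAs tested, 25.4% had WT samples and 26.8% had MT samples wholly below those of the control group. The log2 means were 10.73 ± 0.08 in the control group, 10.51 ± 0.17 in the WT group and 10.51 ± 0.01 in the MT group (SD, n = 2).

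miR-214-5p, the weak arm of the miR-214 hairpin, stayed near the lower end of the scale, with a floor at 16.9. It read 30.2 and 29.8 in the control samples, 27.5 and 36.5 in the WT samples, and 30.5 and 37.7 in the MT samples. The WT samples lay on either side of the control samples. The lower MT sample was above the higher control sample by less than 1 signal unit and was not detected above background.

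**Figure D1:**
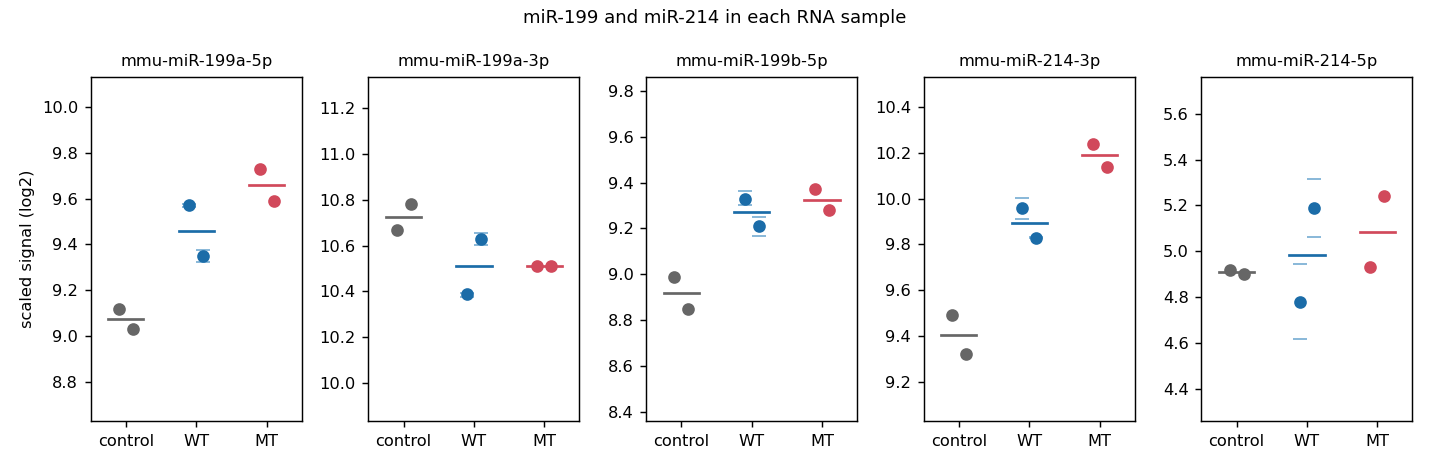
Scaled signal (log2) of the 5 miRNAs in each RNA sample of the control, WT and MT groups, with each panel spanning the same log2 range. Points are RNA samples, horizontal bars are group means, and small ticks are the 2 arrays of each WT sample. At this scaling miR-214-3p, miR-199a-5p and miR-199b-5p lay higher in all 4 samples with IhhN than in both control samples, and miR-199a-3p lay lower. Of all 142 miRNAs tested, 39.4% lay wholly higher in WT than in control and 25.4% wholly lower. For MT the shares were 40.8% and 26.8%.

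The comparison of WT with control asks what the wild type protein does to these miRNAs. None of the 5 members passed an adjusted p of 0.05 (limma, Benjamini-Hochberg over the 142 miRNAs tested), and neither did any other miRNA (0%). Before adjustment, 2 of the 5 were higher at the same threshold, against 17.6% of all 142, and 0 were lower, against 10.6%. miR-214-3p was 0.49 higher on the log2 scale, or 1.4-fold, with an SE of 0.15, a 95% confidence interval of 0.13 to 0.85, and an adjusted p of 0.139. miR-199a-5p was 0.39 higher (SE 0.16, interval 0.01 to 0.76, adjusted p = 0.167). The difference for miR-199b-5p was 0.35 (interval -0.0042 to 0.71, adjusted p = 0.171), and for miR-199a-3p it was -0.22 (interval -0.59 to 0.15, adjusted p = 0.355). miR-214-5p differed by 0.08 (interval -0.39 to 0.54, adjusted p = 0.845). The samples did not overlap for 3 members that were higher and 1 that was lower, against 39.4% and 25.4% of all miRNAs tested. The median difference was 0.35 over the 5 members and 0.11 over all 142.

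The comparison of MT with control asks the same of the E95K protein, against the same control samples. The members took the same directions as above, and again none passed an adjusted p of 0.05 (0% of all 142 did). Before adjustment, 3 of the 5 were higher at the same threshold, against 26.8% of all, and 0 were lower, against 12.7%. miR-214-3p was 0.78 higher, or 1.72-fold (SE 0.15, interval 0.42 to 1.15, adjusted p = 0.0611), and ranked 8 of 142 from the highest difference. miR-199a-5p was 0.59 higher, or 1.5-fold (SE 0.16, interval 0.21 to 0.96, adjusted p = 0.0611), at rank 28. For miR-199b-5p the difference was 0.41 (SE 0.15, interval 0.05 to 0.76, adjusted p = 0.0993). The differences of miR-199a-3p, -0.21 (interval -0.59 to 0.16), and of miR-214-5p, 0.18 (interval -0.29 to 0.64), had intervals that span 0. The samples did not overlap for 4 members that were higher and 1 that was lower, against 40.8% and 26.8% of all. The median difference was 0.41 over the members and 0.13 over all 142. Under 4 of the alternative settings the adjusted p of both miR-214-3p and miR-199a-5p fell below 0.05. With normexp background correction it was 0.00264 and 0.0188, and 40 of all 142 miRNAs passed. With only the miRNAs detected on all 8 arrays 29 of 103 passed. With RNA sample as a random block, a fit that counts the repeat arrays of WT samples, 11 of 142 passed. The last setting was a crossed replicate block, added after seeing the data, where 58 of 142 passed.

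**Figure D2:**
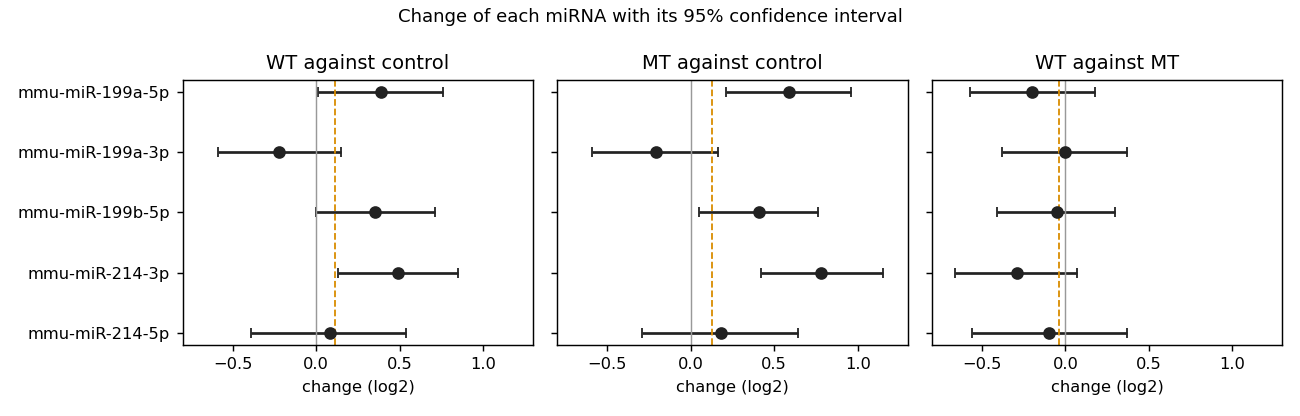
Difference of each miRNA (log2) in the 3 comparisons, with 95% confidence intervals from limma. The solid line is 0 and the dashed line the median of all miRNAs tested, 0.11, 0.13 and -0.04. For miR-214-3p the interval lies above 0 in both comparisons with the control group and spans 0 between WT and MT; with the scaling over all mouse probes the point estimates moved to 0.13 and 0.07.

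The comparison of WT with MT asks whether E95K alters the response. None of the 5 members and none of the 142 miRNAs passed the threshold with adjustment (0%) or without it (0% higher, 0% lower). miR-214-3p was -0.29 in WT against MT (interval -0.66 to 0.07, adjusted p = 0.99), and miR-199a-5p was -0.20 (interval -0.57 to 0.18, adjusted p = 0.99). The samples of these 2 members did not overlap, with WT lower, against 17.6% of all miRNAs tested, and those of 0 members did not overlap with WT higher, against 8.45%. miR-199b-5p differed by -0.05 (interval -0.41 to 0.30), miR-214-5p by -0.10 (interval -0.56 to 0.37) and miR-199a-3p by -0.0045 (interval -0.38 to 0.37). All 5 intervals span 0, which does not show that the proteins act alike.

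**Figure D3:**
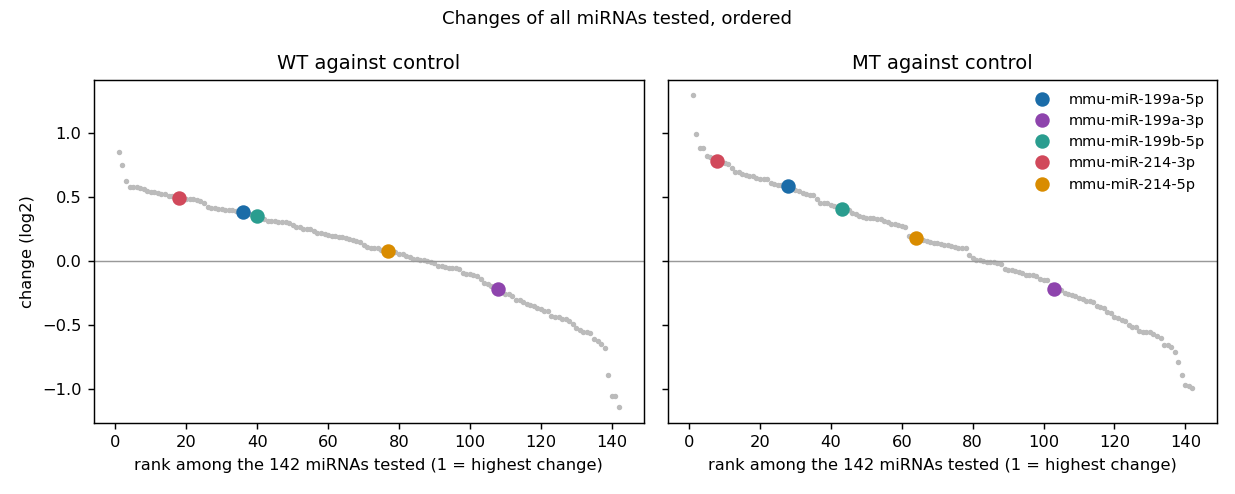
Differences (log2) of the 142 miRNAs tested, ordered from the highest, in WT against control and MT against control, with the 5 members in colour. miR-214-3p lies at rank 18 and 8, miR-199a-5p at 36 and 28, miR-199b-5p at 40 and 43, miR-214-5p at 77 and 64, and miR-199a-3p at 108 and 103.

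The arms of miR-199a took opposite directions at this scaling, so their ratio was examined as well. For miR-199a the log2 difference between the 5p and the 3p signal was taken in each RNA sample and set against its mean in the control group. It was 0.10 and -0.10 in the control samples, 0.84 and 0.37 in the WT samples, and 0.88 and 0.72 in the MT samples. All samples with IhhN thus lay above both control samples, by 0.61 on average for WT and 0.80 for MT, a description with no test. Dividing an array by a constant leaves this quantity as it is. Over the other settings it ranged from 0.37 to 0.84 in WT and from 0.34 to 0.90 in MT, with 0.37 in WT when replicate 1 of that group was left out and 0.34 in MT when the side of the slide was added to the fit. Among 11 hairpins with both arms tested, miR-199a had the 5th largest shift of its arms in WT and the 4th largest in MT. An upward shift with no overlap with the control samples was not particular to miR-199a. It was also seen for miR-31, miR-542 and miR-574 in WT, and for miR-22, miR-31 and miR-542 in MT. The miR-199a-3p signal also holds miR-199b-3p, so the ratio is not that of a single hairpin.

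miR-214-3p, from Dnm3os, and miR-199a-5p, from the Dnm3os or the Dnm2 copy, had differences of more similar size. Their log2 difference, set against the control mean in the same way, was 0.06 and 0.15 in the WT samples and 0.18 and 0.22 in the MT samples, with 0.04 and -0.04 in the control samples. Against miR-199a-3p, miR-214-3p shifted by 0.71 in WT and 1.0 in MT, with ranges over the other settings of 0.52 to 0.89 and 0.63 to 1.14. The lowest value in MT, 0.63, came when the side of the slide was added to the fit. The paralogues miR-199a-5p and miR-199b-5p differed from each other by 0.03 more in WT and 0.18 more in MT than in the control group. A ratio of this kind shows unequal change and does not show which of the miRNAs changed.

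**Figure D4:**
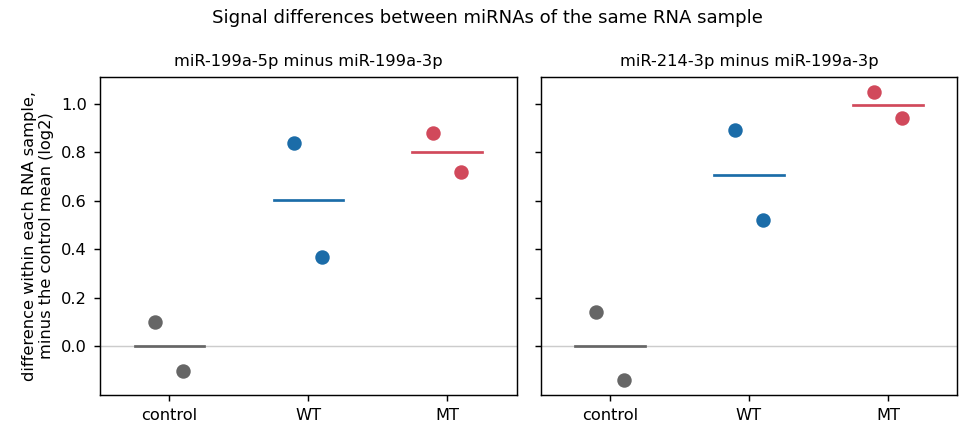
Log2 difference between miR-199a-5p and miR-199a-3p (left) and between miR-214-3p and miR-199a-3p (right) in each RNA sample, minus the mean of the control group. Points are RNA samples and bars are group means, which stand at 0.61 and 0.80 on the left and 0.71 and 1.0 on the right for WT and MT.

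The probes of a member gave close values. Each of the 4 members detected on all arrays had 2 probes of 10 spots, and the brighter one was used above. The dimmer probe of miR-214-3p differed by 0.44 in WT and 0.81 in MT against control, and that of miR-199a-5p by 0.29 and 0.59. The dimmer probes of miR-199b-5p gave 0.33 and 0.41 and those of miR-199a-3p gave -0.19 and -0.21. For miR-214-5p, by contrast, only 1 of 4 probes was detected on any array. The SD between the 2 arrays of a WT sample was 0.06 or less on the log2 scale for the other members and 0.23 and 0.18 for miR-214-5p, where the median of all miRNAs tested was 0.07 and 0.06.

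The size of these differences against the control group, and for miR-199a-5p, miR-199b-5p and miR-214-5p the direction, depended on how the arrays were scaled. Before any scaling, miR-214-3p read 1088.8 and 745.4 in the control samples, 921.8 and 884.2 in the WT samples and 1028.9 and 937.0 in the MT samples, so the control samples overlapped both IhhN groups while WT lay below MT. Unscaled miR-199a-5p overlapped between all groups, with 839.4 and 610.4 in the control samples, 704.3 and 631.8 in the WT samples and 724.1 and 639.5 in the MT samples. miR-199a-3p was lower in every sample with IhhN before scaling too, at 2464.1 and 2055.0 in the control samples against 1239.5 and 1532.4 in WT and 1239.9 and 1217.8 in MT. The arrays themselves differed, with a 75th percentile of the detected probes of 606.1 and 785.2 in the control group, 442.5 to 565.2 in the WT group and 432.0 and 442.3 in the MT group. Whether this reflects less miRNA in the cells or a dimmer array was not tested, and in bulk RNA fewer cells carrying a miRNA and less of it in each cell cannot be told apart.

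With the 75th percentile taken over all mouse probes, the median of all 142 miRNAs moved from 0.11 to -0.19 in WT and from 0.13 to -0.51 in MT, and the share of all miRNAs that were higher went from 61.3% to 29.6% and from 57.7% to 10.6%. Under that scaling miR-214-3p differed from the control group by 0.13 in WT and 0.07 in MT. miR-199a-5p differed by 0.03 and -0.13, miR-199b-5p by -0.0048 and -0.31, and miR-199a-3p by -0.58 and -0.93. Distances from the median of all miRNAs moved less. Apart from the floor this follows from the scaling itself, because another divisor moves every miRNA of an array alike. miR-214-3p lay 0.38 and 0.65 above it in WT and MT in the main scaling and 0.32 and 0.58 above it here, and miR-199a-3p lay 0.33 and 0.35 below it in the main scaling and 0.39 and 0.42 below it here. Quantile normalization gave 0.43 and 0.63 for miR-214-3p and -0.21 and -0.32 for miR-199a-3p. Normexp background correction can move these distances. With it the distance from the median in WT and MT was 0.19 and 0.52 for miR-214-3p and -0.48 and -0.43 for miR-199a-3p.

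**Figure D5:**
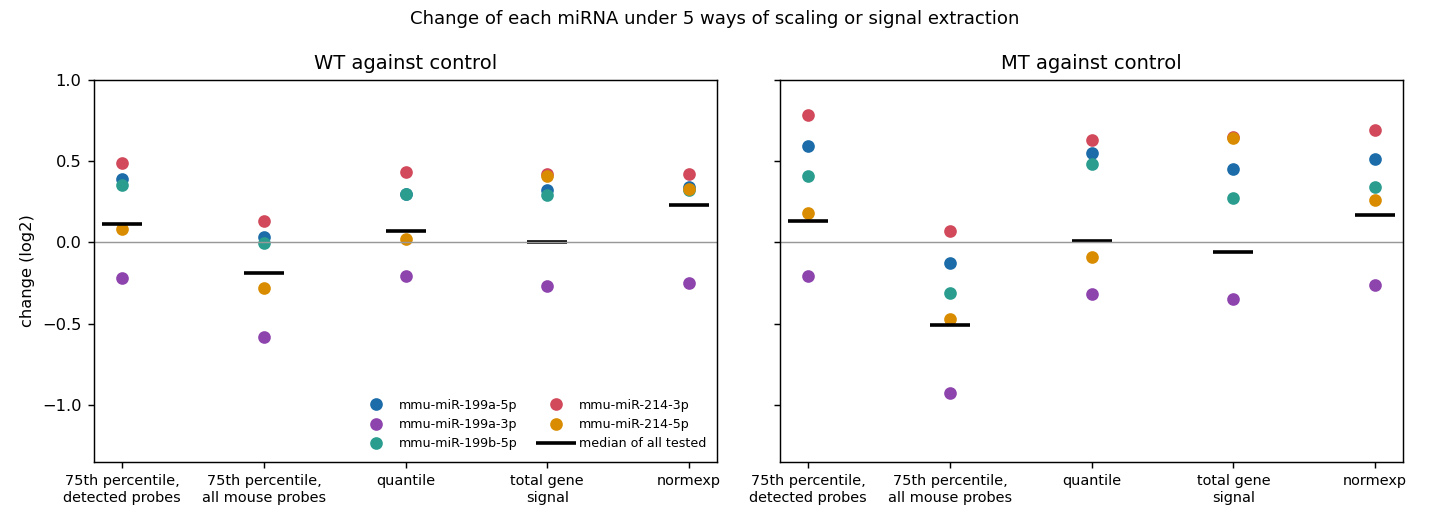
Difference of each miRNA (log2) in WT against control and MT against control under 5 ways of scaling or signal extraction, with the median of all miRNAs tested as a black bar. miR-214-3p is at or near the top and miR-199a-3p lowest in each, while the zero line passes below miR-199a-5p in WT (0.03) and above it in MT (-0.13) under scaling to all mouse probes. Under total gene signal, the value of miR-214-5p is nearly that of miR-214-3p because the deposited total of miR-214-5p contains it.

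Position on the slide was tied to the groups. The left side held the MT samples with WT replicate 1, and the right side held the control samples with WT replicate 2, so MT and control never shared a side. Within the right side, WT replicate 2 differed from the control mean by 0.43 for miR-214-3p, 0.28 for miR-199a-5p, 0.29 for miR-199b-5p, -0.10 for miR-199a-3p and 0.28 for miR-214-5p. Within the left side, WT replicate 1 differed from the MT mean by -0.23 for miR-214-3p, -0.09 for miR-199a-5p, 0.0099 for miR-199b-5p, -0.13 for miR-199a-3p and -0.30 for miR-214-5p. Each value rests on 1 WT sample. The part of side in the MT against control values cannot be told apart from that of the protein except through the WT samples. All WT arrays lay in row 1 of the slide, and all MT and control arrays in row 2. The within-side values therefore also cross rows, and row cannot be told apart from protein in any comparison with WT. With the side added to the limma fit, miR-214-3p was 0.66 and miR-199a-5p 0.36 in MT against control (adjusted p = 0.945 for each). In WT against control they were 0.43 and 0.28 (adjusted p = 0.547 and 0.616).

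Several other miRNAs ran with the members over the 6 RNA samples, which share the scaling and the group means. These Pearson correlations are given as a description with no test. miR-199a-5p was most like miR-181a-5p (0.997), miR-34b-3p (0.987) and miR-193b-3p (0.983). miR-214-3p was most like miR-296-5p (0.986), miR-181a-5p (0.984) and let-7d-5p (0.966), and miR-199b-5p most like miR-25-3p (0.991), miR-34b-3p (0.986) and let-7d-5p (0.985). miR-199a-3p was most like miR-34b-5p (0.988), miR-15a-5p (0.971) and miR-29c-3p (0.97). For miR-214-5p the nearest were miR-574-3p (0.792), miR-1892 (0.582) and miR-29a-3p (0.559). Among the members, miR-199a-5p and miR-214-3p correlated at 0.99, whereas miR-199a-3p correlated at -0.87 with miR-199a-5p. Such values were common, since 22 non-member miRNAs correlated above 0.9 with miR-214-3p and 25 with miR-199a-5p.

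Other miRNAs known from cartilage, bone and hedgehog-responsive mesenchyme gave a background for the members. Of 63 arms of the 35 entries on the array, 27 were tested, and none passed an adjusted p of 0.05 in any of the 3 comparisons. At an unadjusted p under 0.05, 1 of the 27 was higher and 4 lower in WT against control, where 17.6% and 10.6% of all 142 miRNAs were. In MT against control 2 were higher and 3 lower, where 26.8% and 12.7% of all were, and 0 differed between WT and MT. Their median difference was 0.01 in WT and -0.08 in MT against control, where that of all miRNAs was 0.11 and 0.13. miR-29b-3p, which is known to lower collagen mRNAs, had the smallest p of the list in both, at -1.06 in WT (SE 0.22, adjusted p = 0.139) and -0.89 in MT (SE 0.22, adjusted p = 0.0611). miR-21-5p was -0.89 in WT (SE 0.28, adjusted p = 0.139). miR-455-3p, made from an intron of a cartilage collagen gene, was 0.62 in WT and 0.78 in MT (SE 0.21 in each, adjusted p = 0.139 and 0.0611), a size close to that of miR-214-3p. miR-34c-5p was -0.39 in MT (SE 0.15, adjusted p = 0.106). Between WT and MT the smallest p in the list belonged to miR-30c-5p (0.27), miR-24-1-5p (0.35) and miR-143-3p (-0.20), each with an adjusted p of 0.99.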

How the data were processed

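Total RNA of C3H10T1/2 cells was labelled with Cy3 and hybridized to Agilent mouse miRNA arrays. The authors deposited the scanner output, with the intensity of each spot after background subtraction by Feature Extraction, and a series table of the same intensity values, equal to within 0.01 signal units, with no normalization between arrays. The submitters' notes name Feature Extraction 9.1 and the file headers version 10.7.1.1. How the authors scaled the arrays against each other was not given in the sources used here. Depth has no meaning for arrays, whose number (8) limits the precision.

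Outlier spots were dropped, the spots of a probe averaged, and each array divided by its 75th percentile over the 174 probes detected on all arrays. A floor (4.08 on the log2 scale) was set, log2 taken, the brightest probe of each miRNA kept and the 2 arrays of a WT sample averaged. The 142 miRNAs that every array of some group detected were fitted together with limma 3.58.1 in R 4.3.3 (lmFit, eBayes, Benjamini-Hochberg). The fit was tested on simulated data. Figures were drawn with matplotlib 3.10.9. Named miRNAs were all members, the 3 skeletal miRNAs with the smallest p per comparison, and the 3 miRNAs most correlated with each member. The members, the lists and the tests were chosen with earlier results of these data known. Alternatives covered scaling, signal column, background correction (normexp, on median spot signals), floor, filter, probes, outliers, technical arrays, replicate block, samples fitted, intensity trend, side of the slide and leaving out each RNA sample. A crossed replicate block was added after seeing the data. Sequences are from RefSeq.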

Additional observations from a re-analysis of the deposited data

How the results depend on the processing

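Of 332 member differences recomputed under alternative settings, 296 kept their direction and their side of the threshold, 27 changed sign and 9 passed the threshold where they had not. Several settings alter only the p-value, such as the filters, the replicate block and the intensity trend. Leaving out a sample of the group not compared does so too. Such settings cannot change a sign, so the 296 do not measure how stable the directions are. No member passed in WT against control or WT against MT under any setting run. In MT against control, 2 of the 5 members passed with normexp (40 of 142 miRNAs in all). The same 2 passed with only the miRNAs detected on all 8 arrays (29 of 103, with 4 members present). They also passed with RNA sample as a random block over all arrays (11 of 142). That fit takes the 2 arrays of each WT sample as further values for the spread, and adds no RNA sample. In that order of settings, miR-214-3p was at 0.69, 0.78 and 0.78 (adjusted p = 0.00264, 0.0324 and 0.0469). miR-199a-5p was at 0.51, 0.59 and 0.59 (adjusted p = 0.0188, 0.0372 and 0.0472). Leaving out each RNA sample gave 0 to 1 members, the 1 being miR-214-3p without MT replicate 2 (0.83, adjusted p = 0.0464, 18 miRNAs in all), whose difference ranged from 0.70 to 0.87 over these fits. That fit leaves 1 MT sample, which is assumed to vary like the samples of the other groups. The cause was not tested.

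Replicate numbers did not pair the samples. After removing group means, samples of the same number correlated at 0.02 between WT and MT, at 0.39 between WT and control and at -0.46 between MT and control. With the replicate block, 0 members and 0 of 142 miRNAs passed in each comparison. With the crossed block of MT and control, chosen after seeing the data, 2 members (0.78 and 0.59) and 58 miRNAs passed.

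Scaling to all mouse probes turned the sign of miR-199b-5p (-0.0048) and miR-214-5p (-0.28) in WT against control and of miR-199a-5p (-0.13), miR-199b-5p (-0.31) and miR-214-5p (-0.47) in MT against control. In WT against MT it turned all 5, giving 0.35 for miR-199a-3p, 0.16 for miR-199a-5p, 0.30 for miR-199b-5p, 0.06 for miR-214-3p and 0.19 for miR-214-5p. Adding the side of the slide to the fit turned miR-199a-3p in MT against control (0.03) and miR-199b-5p in WT against MT (0.01). Quantile normalization turned miR-214-5p (-0.09 in MT against control, 0.11 in WT against MT) and, in WT against MT, miR-199a-3p (0.11). Total gene signal turned miR-199a-3p (0.09) and miR-199b-5p (0.02) in WT against MT, and normexp turned miR-199a-3p (0.0077) and miR-214-5p (0.06) there. miR-199a-3p, at -0.0045 in WT against MT, also turned when outlier spots were kept (0.02), all probes were averaged (0.0067) or only the second technical arrays were used (0.01). Leaving out an RNA sample gave ranges that crossed 0 for miR-214-5p in WT against control (-0.13 to 0.28) and, in WT against MT, for miR-199a-3p (-0.13 to 0.12), miR-199b-5p (-0.12 to 0.01) and miR-214-5p (-0.30 to 0.11).

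The deposited total gene signal of miR-214-5p was 7.5 to 15.2 units above that of miR-214-3p on each array, of which the latter made up 98.4% to 99.2%, so that setting gives no separate value for miR-214-5p. Background limits miR-214-5p in every setting.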
